A study of Saccharomyces cerevisiae with 6 samples.

Results

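The SPS pathway is the yeast cell's sensor for amino acids in the medium, and 10 of its genes were followed here: the sensor genes SSY1, PTR3 and SSY5, the transcription factor gene STP1, and the target permease genes AGP1, BAP2, BAP3, TAT1, GNP1 and PTR2. The members were chosen by gene symbol, and each was measured by 1 probe set, so they were 10 of 5498 probe sets tested for Saccharomyces cerevisiae. The series compared total RNA of budding yeast in mid-log growth on 6 Affymetrix arrays, of which 3 held wild type RNA and 3 RNA of cells deleted for VPS4 (labelled Delta VPS4), the ATPase that ends the formation of multivesicular bodies at the endosome. Both genotypes grew at 26 °C in synthetic YNB medium to which the amino acids they required had been added. The labels give neither the strain background nor the construction of the deletion, and they do not say whether the replicates were separate cultures, so the spread behind each p-value may be technical.

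In this pathway Ssy1, a permease-like protein of the plasma membrane that transports nothing itself, binds amino acids outside the cell and acts with Ptr3 and the protease Ssy5. Ssy5 then cuts an inhibitory piece from Stp1 and from its homolog Stp2, which enter the nucleus and, together with Dal81, switch on permease genes. The signal is carried by proteolysis and not by new sensor RNA, and the permeases it induces are later carried through multivesicular bodies to the vacuole when they are turned over.

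The deposited values are log2 intensities per probe set, and a difference is always VPS4 deletion minus wild type on that log2 scale. Array values are given in a fixed order, wild type replicates 3, 4 and 6, then deletion replicates 4, 5 and 6. VPS4 (YPR173C) read 11.46, 11.48 and 11.39 in wild type and 1.75, 1.42 and 1.29 in the deletion, below background on each deletion array and at least 760.5-fold lower (limma adjusted p = 1.30e-07). All 6 arrays therefore carried the genotype on their labels. Markers of alpha cells were bright on each array, with MF(ALPHA)1 between 13.01 and 13.11, while the 6 markers of a cells lay between 2.76 and 7.44. Both marker lists held genes that fell in the deletion, 2 of 4 for alpha cells and 2 of 6 for a cells, beside 1.46% of all tested probe sets called lower, and their part in the values below was not tested. Wild type replicate 3 stood apart: its correlation across tested probe sets with either other wild type array was 0.993, against 0.999 between those 2, and 73 probe sets differed from them by more than 1 log2. All 10 pathway members were above background on all 6 arrays.

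PTR2 rose in the deletion, and the other 9 members did not pass the test. PTR2 (YKR093W) encodes the proton-coupled permease for di- and tripeptides. It read 7.20, 7.31 and 7.27 in wild type and 7.63, 7.85 and 7.89 in the deletion. Every deletion array lay above every wild type array, with 0.32 between the nearest. The mean went from 7.26 ± 0.06 to 7.79 ± 0.14 (SD, n = 3), which is 1.45-fold, a difference of 0.53 ± 0.08 (SE; 95% interval 0.34 to 0.73; limma adjusted p = 0.0182). In RNA from whole cultures, more RNA per cell and more cells that hold it cannot be told apart. Of all tested probe sets, 4.27% passed the same threshold, 2.82% higher and 1.46% lower, so 1 of 10 members is not far from the background share. The median difference over the members was 0.01, against −0.002 over all tested probe sets, and the median absolute differences were alike at 0.06.

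The call for PTR2 depended on the arrays used, although its direction did not. It ended when wild type replicate 4 was left out (limma adjusted p = 0.0546), and likewise for wild type replicate 6 (0.0766), deletion replicate 5 (0.103) and deletion replicate 6 (0.0904). It stood when the array left out was wild type replicate 3 (0.00237) or deletion replicate 4 (0.0451). Over these 6 fits the difference ran from 0.48 to 0.61. The 235 calls over all 5498 tested probe sets became 118 when wild type array 4 was dropped and 103 for array 6. They became 58, 22 and 47 for deletion arrays 4, 5 and 6, and 1212 for wild type array 3. A call lost in such a fit, here or for genes below, thus came with fewer calls among all tested probe sets.

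**Figure D1:**
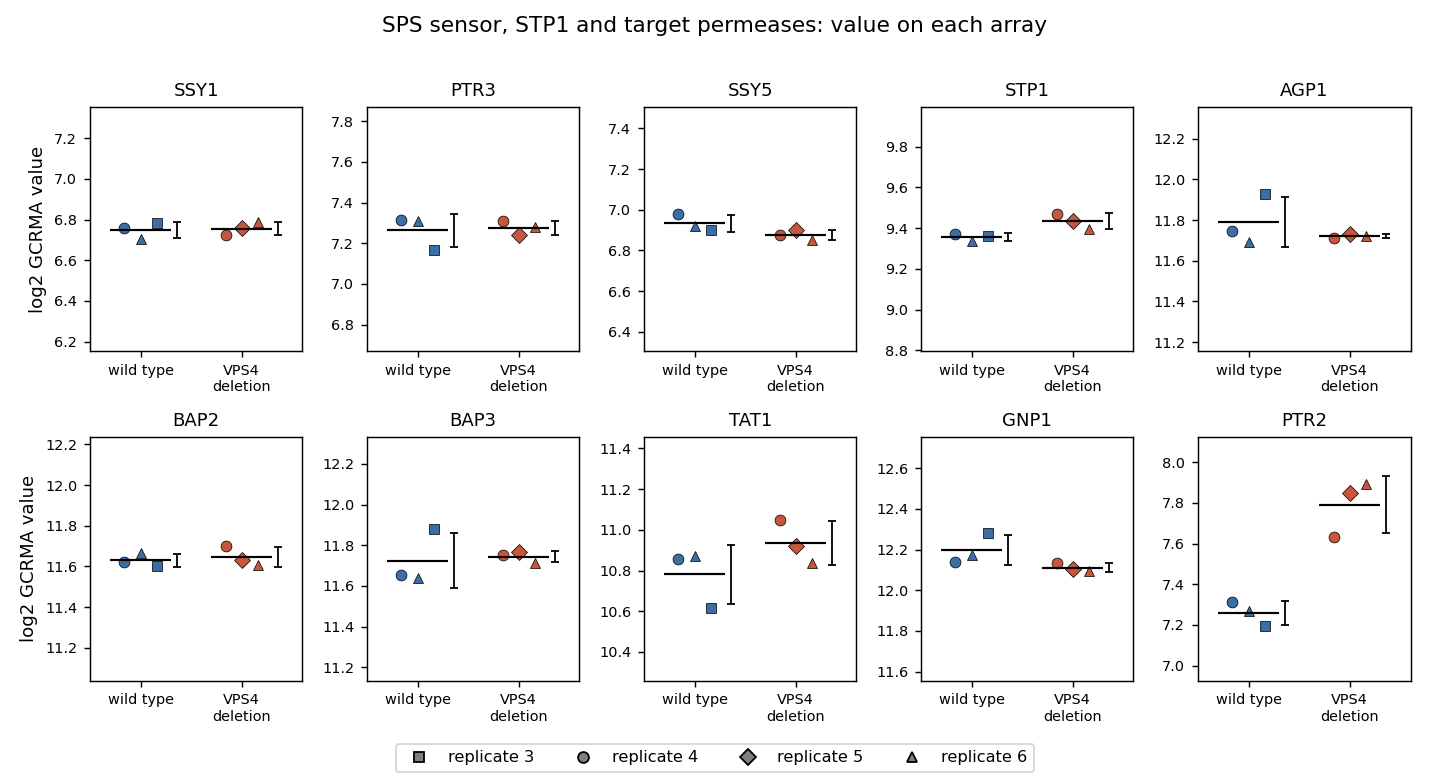
Log2 GCRMA value of each member on each array (vertical axis; every panel spans the same range), with wild type in blue and the VPS4 deletion in red, lines at group means, bars of 1 SD beside them and symbols for replicate numbers. PTR2 is the panel with a wide gap between genotypes; wild type replicate 3 (squares) lies above the other wild type arrays for AGP1, BAP3 and GNP1 and below them for TAT1 and PTR3.

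None of the 3 sensor genes passed the test. SSY1 (YDR160W), the amino acid receptor, read 6.79, 6.76 and 6.71 in wild type and 6.72, 6.76 and 6.79 in the deletion, and the groups overlapped. Its difference was 0.01 ± 0.06 (SE; 95% interval −0.13 to 0.14; limma adjusted p = 0.976). PTR3 (YFR029W), a peripheral membrane protein that links the receptor to the protease, read 7.17, 7.31 and 7.31, then 7.31, 7.24 and 7.28. Here too the groups overlapped, and the low wild type array was replicate 3. The difference of PTR3 was 0.01 ± 0.06 (SE; 95% interval −0.14 to 0.16; limma adjusted p = 0.952), and it was −0.04 without that array.

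SSY5 (YJL156C), the protease that cuts Stp1 and Stp2, read 6.90, 6.98 and 6.92 in wild type and 6.88, 6.90 and 6.85 in the deletion. All deletion arrays lay below all wild type arrays, but by only 0.002 at the nearest pair, and the difference of −0.06 ± 0.06 (SE; 95% interval −0.19 to 0.08) did not pass (limma adjusted p = 0.670). Averaged over the sensor genes and centred on wild type, the deletion arrays lay between −0.02 and −0.01, inside the wild type range of −0.03 to 0.04.

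STP1 (YDR463W), the factor that Ssy5 activates, was slightly higher on all deletion arrays, at 9.47, 9.44 and 9.39 against 9.36, 9.37 and 9.34. The gap at the nearest pair was 0.02. Its difference of 0.08 ± 0.04 (SE; 95% interval −0.01 to 0.17), or 1.06-fold, did not pass (limma adjusted p = 0.364) and kept its sign without each array in turn. Counting STP1, SSY5, GNP1 and PTR2, the groups did not overlap for 4 of 10 members, 2 higher and 2 lower, beside 24.8% of all tested probe sets. With 3 arrays per genotype, 0.1 is the smallest two-sided p an exact permutation test allows, so such a separation alone cannot pass.

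None of the 5 amino acid permease genes that Stp1 and Stp2 induce passed the test with all arrays. Of these 5, 0 had an unadjusted p under 0.05 (limma), beside 958 of all 5498 tested probe sets. BAP2 (YBR068C), a permease for branched-chain amino acids, read 11.60, 11.62 and 11.66 in wild type and 11.70, 11.63 and 11.61 in the deletion. The groups overlapped, and its difference of 0.02 ± 0.03 (SE; 95% interval −0.06 to 0.09; limma adjusted p = 0.847) had the narrowest interval of the 10 members. TAT1 (YBR069C), which encodes a permease for tyrosine, tryptophan and branched-chain amino acids and lies beside BAP2 on the chromosome, read 10.62, 10.86 and 10.87, then 11.05, 10.92 and 10.84. Its wild type replicate 3 was low by 0.25, and deletion replicate 6 lay within the wild type range. TAT1 had the largest difference among the members that did not pass, at 0.15 ± 0.08 (SE; 95% interval −0.05 to 0.35; limma adjusted p = 0.413), and 0.07 without wild type replicate 3.

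BAP3 (YDR046C), a close paralog of BAP2 that carries branched-chain amino acids among others, read 11.88, 11.65 and 11.64 in wild type and 11.75, 11.77 and 11.71 in the deletion. Wild type replicate 3 was the highest of the 6 arrays and the other 2 wild type arrays were the lowest. With all arrays the difference was 0.02 ± 0.06 (SE; 95% interval −0.13 to 0.17; limma adjusted p = 0.917). Without wild type replicate 3 it was 0.10 ± 0.02 (SE) and passed (limma adjusted p = 0.0162), while without wild type replicate 4 or 6 its sign turned, to −0.02 in each. With replicate 3 left out, 2 of 10 members passed, PTR2 and BAP3, both higher, beside 22.0% of all tested probe sets. Of those 5498 probe sets, 656 were called higher and 556 lower in that fit.

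AGP1 and GNP1 are paralogs, the first a permease of broad specificity and the second a high-affinity glutamine permease. AGP1 (YCL025C) read 11.93, 11.75 and 11.69 in wild type and 11.71, 11.73 and 11.72 in the deletion. Replicate 3 was again the high array, by 0.21 over the other wild type arrays, and the deletion arrays lay between the wild type values. The difference of AGP1 was −0.07 ± 0.06 (SE; 95% interval −0.21 to 0.07; limma adjusted p = 0.623) with all arrays and −0.0007 without replicate 3. GNP1 (YDR508C) read 12.28, 12.14 and 12.17, then 12.14, 12.10 and 12.09. All deletion values of GNP1 were below all wild type values, by 0.006 at the nearest pair, and the difference was −0.09 ± 0.04 (SE; 95% interval −0.18 to 0.003; limma adjusted p = 0.305). It was −0.05 without replicate 3.

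**Figure D2:**
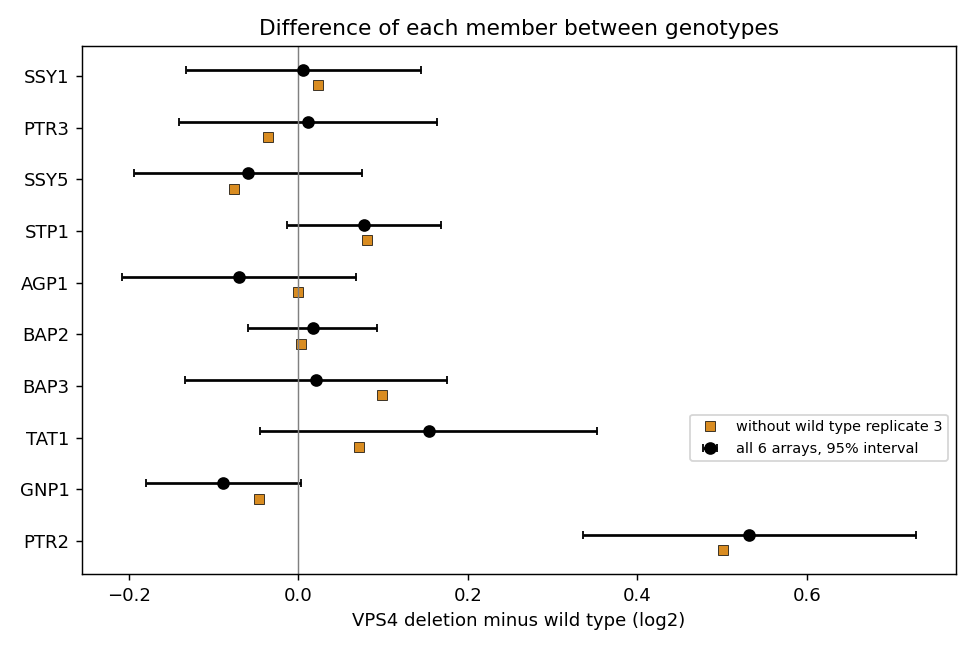
Difference of each member, VPS4 deletion minus wild type in log2 units (horizontal axis). Black points with bars give the limma estimate over 6 arrays and its 95% interval, unadjusted for the number of genes, and orange squares the estimate without wild type replicate 3; the interval of PTR2 (0.34 to 0.73) lies above 0 and those of the other 9 members include 0.

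PTR2 moved unequally to the other 5 permeases within the same arrays. Centred on the wild type mean, the 5 amino acid permeases averaged 0.04, −0.02 and −0.02 in wild type and 0.04, 0.01 and −0.03 in the deletion. PTR2 minus that average was −0.10, 0.08 and 0.02, then 0.33, 0.58 and 0.66. The 2 genotypes overlapped in the first quantity and not in the second, whose mean differed by 0.53; PTR2 was singled out with its result known, and this comparison was not tested further. Among the deletion arrays, replicate 6 was highest for PTR2 and lowest for BAP2, BAP3, TAT1 and GNP1. Among the 95% intervals of the 9 members that did not pass, the lowest limit was −0.21 for AGP1 and the highest 0.35 for TAT1. For each gene, a change within its own interval could have gone uncalled, and that of BAP2 was narrower (−0.06 to 0.09).

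PTR2 has a regulation of its own besides the SPS pathway. Cup9 is a repressor of PTR2, and the ubiquitin ligase Ubr1, working with the conjugating enzyme Rad6, degrades Cup9 when dipeptides are present. CUP9 (YPL177C) read 9.78, 9.76 and 9.72 in wild type and 9.99, 9.87 and 9.95 in the deletion. All deletion arrays were the higher ones, with a difference of 0.18 ± 0.04 (SE) that did not pass (limma adjusted p = 0.0707); without wild type replicate 3 it did (0.00768), at 0.19. The RNA of the repressor and that of its target were thus both higher on the deletion arrays. UBR1 and RAD6 did not pass, with differences of 0.03 ± 0.04 and −0.04 ± 0.04 (SE).

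Other peptide transporters gave mixed values, with 1 of 3 past the threshold that 4.27% of all tested probe sets passed. The unadjusted p was under 0.05 (limma) for 2 of the 3, beside 958 of all 5498 tested probe sets. DAL5 (YJR152W), the allantoate permease, which also carries dipeptides, rose 1.53-fold. It read 6.85, 6.84 and 6.77 in wild type and 7.58, 7.37 and 7.34 in the deletion, with no overlap (difference 0.61 ± 0.08, SE; limma adjusted p = 0.0109). Of the 6 fits with an array left out, the call ended in that without deletion replicate 5 (0.0645), where 22 of all tested probe sets passed. The oligopeptide and glutathione transporter gene OPT1 differed by 0.10 ± 0.14 (SE), and replicate 3 exceeded the mean of the other wild type arrays by 0.50. Without wild type replicate 3, OPT1 was higher by 0.26 and passed (limma adjusted p = 0.00196). OPT2, which was named after its values were seen, read 7.58, 5.25 and 4.72 in wild type and 3.81, 3.80 and 3.60 in the deletion. Its difference of −2.12 ± 0.68 (SE) did not pass (limma adjusted p = 0.171), and without wild type replicate 3 it fell by 1.25 (0.000409).

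The 3 genes whose 6 array values, each centred on its own mean, lay closest to those of PTR2 were YMR090W, YLR012C and ATG8, at root mean square distances of 0.07, 0.08 and 0.08 log2. ATG8, which encodes the ubiquitin-like protein of autophagosomes, read 8.76, 8.84 and 8.82, then 9.23, 9.24 and 9.29. YMR090W read 7.67, 7.75 and 7.74, then 8.22, 8.28 and 8.23. Both rose (limma adjusted p = 0.00556 each), by 0.44 ± 0.04 and 0.52 ± 0.05 (SE). YLR012C was dim, between 2.12 and 2.96, and did not pass (limma adjusted p = 0.0997). The distance was taken over all 6 arrays, so it includes the difference between genotypes.

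**Figure D3:**
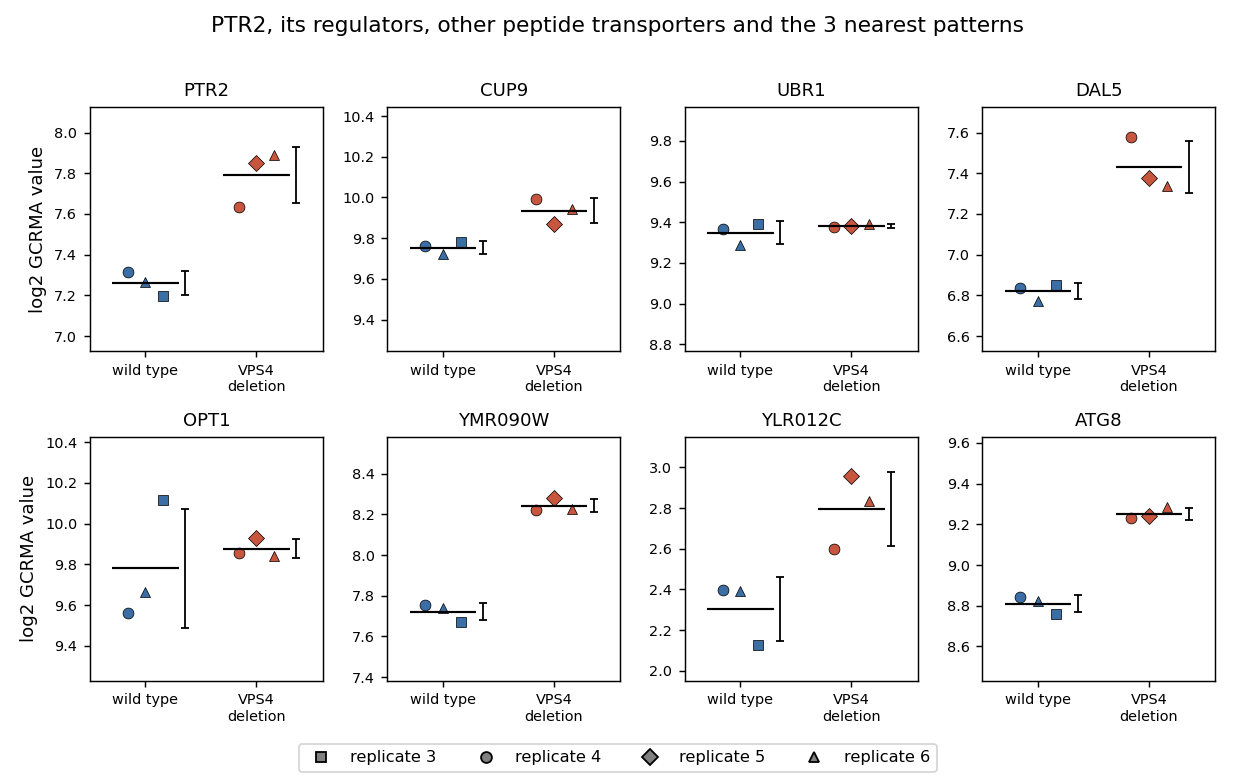
Log2 GCRMA values on each array (vertical axis; every panel spans the same range) for PTR2, its regulators CUP9 and UBR1, the peptide transporter genes DAL5 and OPT1, and the genes with the closest patterns, YMR090W, YLR012C and ATG8; lines are group means and bars 1 SD. The deletion arrays of PTR2, CUP9, DAL5, YMR090W, YLR012C and ATG8 lie above their wild type arrays, whereas those of UBR1 and OPT1 overlap with wild type.

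Beyond the members, 39 genes of 8 lists around the pathway were read in the same fit. In all, 3 of them rose, 1 fell and 35 missed the threshold, beside 2.82% of all tested probe sets called higher and 1.46% lower. Their median difference was −0.01, but their median absolute difference was 0.11, against 0.06 over all tested probe sets. Differences beyond 0.5 log2 were seen for 6 of the 39 (15.4%), beside 3.26%. The groups did not overlap for 14 (35.9%), beside 24.8%. An unadjusted p under 0.05 (limma) was found for 12, beside 958 of all 5498. The lists were chosen with earlier results known. The genes of Stp2 and Dal81, the partners of Stp1, were among the 35. STP2 differed by 0.04 ± 0.04 (SE; limma adjusted p = 0.742) and DAL81 by 0.07 ± 0.06 (0.652). Of 2 further SPS targets, TAT2, the high-affinity tryptophan permease gene, gave −0.01 ± 0.03 (SE; limma adjusted p = 0.947), whereas DIP5, the permease gene for glutamate and aspartate, fell. DIP5 read 11.33, 10.85 and 10.94 in wild type and 10.33, 10.25 and 10.09 in the deletion. The groups of DIP5 were apart by 0.52, and it was 1.76-fold lower (difference −0.82 ± 0.13, SE; limma adjusted p = 0.0195). That call ended when wild type replicate 6 was left out (0.0598), as it did for deletion replicates 4 (0.0779), 5 (0.0987) or 6 (0.102). Calls over all tested probe sets also fell in those fits, as given for PTR2.

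The signal modulators comprise Yck1 and Yck2, casein kinases that phosphorylate the pathway's parts, the ubiquitin ligase subunit Grr1, the phosphatase subunit Rts1, and Asi1, Asi2 and Asi3, proteins of the inner nuclear membrane that keep uncut Stp1 and Stp2 from acting. With all arrays none of these 7 passed. Of the 7, 1 had an unadjusted p under 0.05 (limma), beside 958 of all 5498 tested probe sets. RTS1 had the smallest p, reading 9.30, 9.19 and 9.11 in wild type and 9.39, 9.42 and 9.34 in the deletion (difference 0.18 ± 0.06, SE; limma adjusted p = 0.165). Wild type replicate 3 was the highest wild type array for each of the 7. With it left out, 4 of the 7 passed, all higher. The 22.0% given above counts both directions, with 656 of the 5498 tested probe sets called higher in that fit. They were RTS1 at 0.23 (limma adjusted p = 0.00400), ASI1 at 0.23 (0.0400), ASI2 at 0.37 (0.000822) and ASI3 at 0.12 (0.0283); the 3 ASI genes were named after their values were seen.

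Among 13 other amino acid permease genes, ALP1 rose and 12 did not pass, beside 2.82% of all tested probe sets called higher and 1.46% lower. An unadjusted p under 0.05 (limma) was found for 4 of the 13, beside 958 of all 5498 tested probe sets. ALP1, a relative of the arginine and lysine permeases, was dim, at 2.69, 2.83 and 2.65 in wild type and 3.66, 3.57 and 3.16 in the deletion (difference 0.74 ± 0.15, SE; limma adjusted p = 0.0412). Its call ended without wild type replicates 4 (0.0888) or 6 (0.141) and without deletion replicates 4 (0.155) or 5 (0.173). These fits, too, had fewer calls over all tested probe sets. GAP1, the general amino acid permease gene, was named after its values were seen: it read 9.99, 9.31 and 9.36, then 8.79, 8.90 and 8.85. All deletion values of GAP1 lay below wild type, and its difference of −0.71 ± 0.17 (SE) did not pass (limma adjusted p = 0.0780). Without wild type replicate 3 it fell by 0.49 (5.88e-05), and 3 of the 13 genes rose and 3 fell, beside 22.0% of all tested probe sets called in that fit.

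Of 9 genes for permease export, corepression and general control, 1 passed, beside 4.27% of all tested probe sets (2.82% higher and 1.46% lower). SHR3, whose product packages amino acid permeases for export, differed by −0.05 ± 0.03 (SE; limma adjusted p = 0.473), and CYC8, which encodes a corepressor subunit, by 0.12 ± 0.06 (0.422). Of 6 other regulators, DAL80, a repressor of nitrogen-regulated genes, rose and 5 did not pass. Among the 6, 3 had an unadjusted p under 0.05 (limma), beside 958 of all 5498 tested probe sets. DAL80 read 1.71, 1.84 and 1.86 in wild type, not above background there, and 2.35, 2.31 and 2.30 in the deletion, a level at least 1.36-fold higher (limma adjusted p = 0.0235). The DAL80 call ended whenever an array other than wild type replicate 3 was left out, with adjusted p-values from 0.0730 to 0.120. Each such fit also had fewer calls over all tested probe sets. GCN4, the activator of amino acid synthesis genes, whose output is set mainly by translation, differed by 0.02 ± 0.02 (SE; limma adjusted p = 0.679). GAT1, another of the 6 regulators, was named after its values were seen. It read 9.26, 9.36 and 9.27 in wild type and 9.02, 8.97 and 9.15 in the deletion, with no overlap. Its difference of −0.25 ± 0.06 (SE) did not pass (limma adjusted p = 0.0751). Without wild type replicate 3 it was −0.27 and passed (limma adjusted p = 0.00965).

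**Figure D4:**
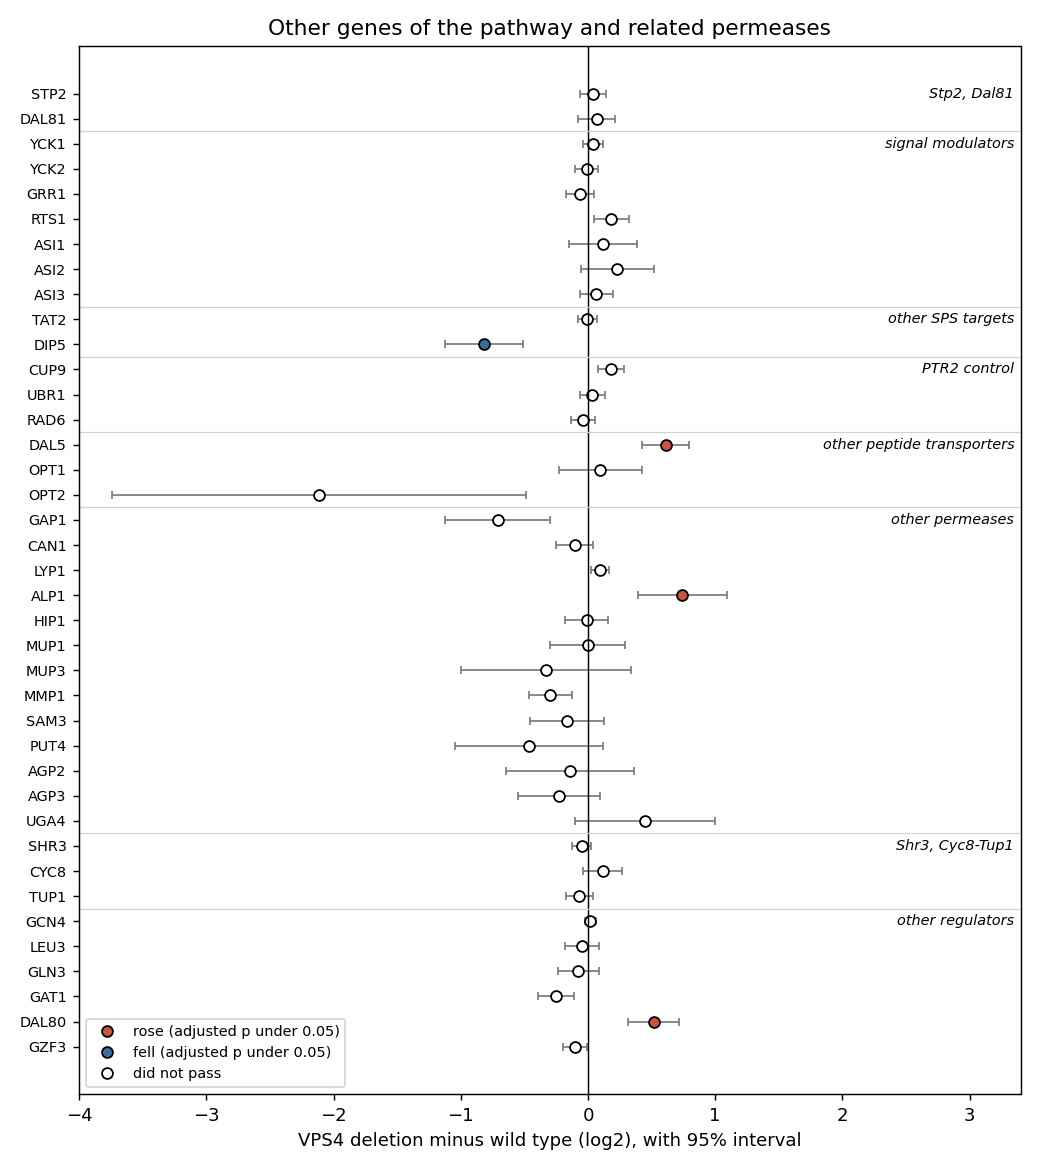
Difference of 39 other genes of the pathway and related permeases, VPS4 deletion minus wild type in log2 units (horizontal axis), with 95% intervals unadjusted for the number of genes and grouped by list. Red points rose (DAL5, ALP1, DAL80), the blue point fell (DIP5) and white points did not pass the adjusted threshold; the widest interval is that of OPT2.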

How the data were processed

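The authors' deposited log2 values per probe set were made with GCRMA (background correction by probe sequence, quantile normalization, robust summary), per the submitters' processing notes; the version and genome build are not given in the sources used here. Names came from the platform annotation by gene ID and a gene table of assembly R64, used for names and neighbours only. Each list gene had 1 probe set, of the kind not marked as shared within a family. Probe sets of another yeast with the names stp1 and ptr3 were left out. Percentile 95 of that yeast's probe sets was each array's background (1.82 to 1.92). Where a gene was not above it on any array of a group, the fold is a lower bound against the higher of background and value.

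Genotypes were compared with limma 3.58.1 in R 4.3.3 (lmFit, eBayes with trend, two-sided; Benjamini-Hochberg over all 5498 tested probe sets, threshold 0.05), after the fit was tested on simulated data. Precision is limited by 3 arrays per group. The members, lists and rule for named genes (all members; called genes of each list, or its smallest p; 3 lists in full; the 3 closest patterns) were chosen with earlier results of these data known. Outside that rule, OPT1, OPT2, GAP1, SHR3, GCN4, GAT1 and the 3 ASI genes were also named. The alternatives were 14 other fits. Replicate numbers come from the titles. Samples numbered 4 and 6 in both genotypes did not deviate together (r = 0.02 and −0.06 over tested probe sets), and no pairing was used in the main fit. The deviations were taken from group means, which wild type replicate 3 shifts, so this check cannot exclude a pairing.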

Additional observations from a re-analysis of the deposited data

How the results depend on the processing

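The 14 alternatives comprised 6 fits with an array left out, and fits with quantile normalization, median centring, array weights or the title number as a replicate block. The rest used a robust prior, a constant prior variance, only the probe sets above background on any array, or every probe set except controls. PTR2 stayed positive in all 14 (0.47 to 0.61) and passed in 10. Of 10 members, 1 passed in each fit given all arrays, the replicate block included (1), and 0 to 2 with an array left out. The replicate block took the genotype difference from replicates 4 and 6 alone, since wild type replicate 3 and deletion replicate 5 have no counterpart of the same number. Members that never passed kept their sign except for SSY1 (−0.013 by median centring, −0.016 by quantile normalization, −0.016 to 0.023 with an array left out), PTR3 (−0.030 with array weights, −0.0071 by median centring, −0.018 with the replicate block, −0.036 to 0.036 with an array left out) and BAP2 (−0.0014 by median centring, −0.0091 to 0.036 with an array left out). BAP3 ran from −0.022 to 0.099 with an array left out. The 4 calls among 39 pathway genes became 16 with array weights, 15 with the replicate block and 0 to 18 with an array left out. The 235 calls over all tested probe sets became 1036 with array weights, 858 with the replicate block and 22 to 1212 with an array left out, the last without wild type replicate 3. With array weights that array took a weight of 0.143, and with the replicate block it did not enter the genotype difference. The counts of those fits are therefore not independent of the counts without wild type replicate 3. Why the counts move with that array was not tested. All 10 members lay above background on all 6 arrays.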
